A study of Mus musculus with 4 samples.

Results

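The genes described here are a set of 34 that white fat cells use to store, make and release lipid: adipokines, lipid droplet coat proteins, lipolysis enzymes, uptake and transport proteins, the enzymes of triglyceride and fatty acid synthesis, and a pair of the transcription factors that drive them. They were chosen by gene symbol, and every probe set of the array annotated to 1 of these symbols was taken. Of the 34, 30 had a named probe set, which is 88.2%, out of 12393 named genes on the array. Cfd, Plin1, Acsl1 and Agpat2 had none and are not described further.

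The study compared mammary tissue of mice that lack Sca-1, a membrane-anchored protein by which stem cells are often sorted, with that of wild-type littermates. The 4 groups were mammary tumor of Sca-1 KO mice, mammary tumor of wild-type (WT) mice, mammary gland of Sca-1 KO mice and mammary gland of WT mice. All mice were female, nulliparous, of C57BL/6 background and fed standard rodent chow. The glands were taken at 6 weeks of age. The tumors came from mice given 15 mg of MP, a depot progestin, under the skin and then DMBA, a carcinogenic polycyclic hydrocarbon, at 1 mg in 4 weekly doses in cottonseed oil by gavage, and their age is not given in the labels. The treatment protocol in the labels is attached to all 4 samples, but only the tumors are described as treated in their own entries. The glands were therefore taken as untreated. On that reading, tumor formation, treatment and any difference in age cannot be told apart in a tumor and gland comparison. The labels do not describe the allele, and since the annotation used names no Sca-1 probe set, the loss of the gene was not checked here. Each group was 1 array, hybridised with RNA pooled from 5 mice, so no test could be made and the spread between mice is unknown.

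White adipocytes fill most of the mammary fat pad of a virgin mouse, and the epithelial ducts run through them. They take up fatty acids released from lipoproteins by lipoprotein lipase or build them from citrate, esterify them to glycerol, and keep the triglyceride in a droplet from which lipases release it again. Pparg and Cebpa are the transcription factors that establish and hold this state, and Mlxipl, also called ChREBP, switches on lipogenic enzymes when glucose is plentiful. Fatty acid synthesis is not restricted to fat cells: mammary epithelium also makes fatty acids for milk, and many tumor cells make their own.

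All levels below are signals, the deposited linear intensities of the probe set with the highest mean for a gene, and levels were compared between arrays only within a probe set. Differences are on the log2(signal + 27.3) scale, with an offset equal to the lower quartile over the 4 arrays. This scale understates the change of dim genes, and the size of the offset decides the fold where a signal lies near background. "Higher" or "lower" in a count means at least 2-fold on that scale. A signal of 168.1, the median of all values, is called the floor, since no detection calls were used here. The 4 arrays had the same trimmed mean of 499.9, with median signals between 150.8 and 199.3. As a gauge of the measurement, 2764 genes with several probe sets were used, and the spread of the difference from one probe set to another was 0.18 for KO minus WT in the tumor, 0.22 in the gland, and 0.48 and 0.52 for tumor minus gland in KO and WT. This does not cover differences between mice.

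Of the 30 measured genes, 29 had signals at or above the floor in both glands, and only Acaca was below it on all 4 arrays. Of all 12393 named genes, 4740 were below the floor in both glands. The fat cell markers Adipoq, Lep, Retn, Cidec and Lipe were all above it in both glands. Over the same 30 probe sets the signals summed to 24423 and 23213 in the KO and WT tumors, against 135060 and 144481 in the KO and WT glands. In the tumors 9 genes were below the floor in each genotype, and 8 of them were below it in both: Lep, Cidec, Lipe, Aqp7, Pck1, Acaca, Acacb and Mlxipl. Plin4 was below it in the KO tumor alone and Retn in the WT tumor alone. As a background for these 8 of 30, 5112 of the 12393 named genes did not reach the floor in either the KO or the WT tumor. Signals under the floor in the tumors were therefore not particular to the white fat genes.

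**Figure D1:**
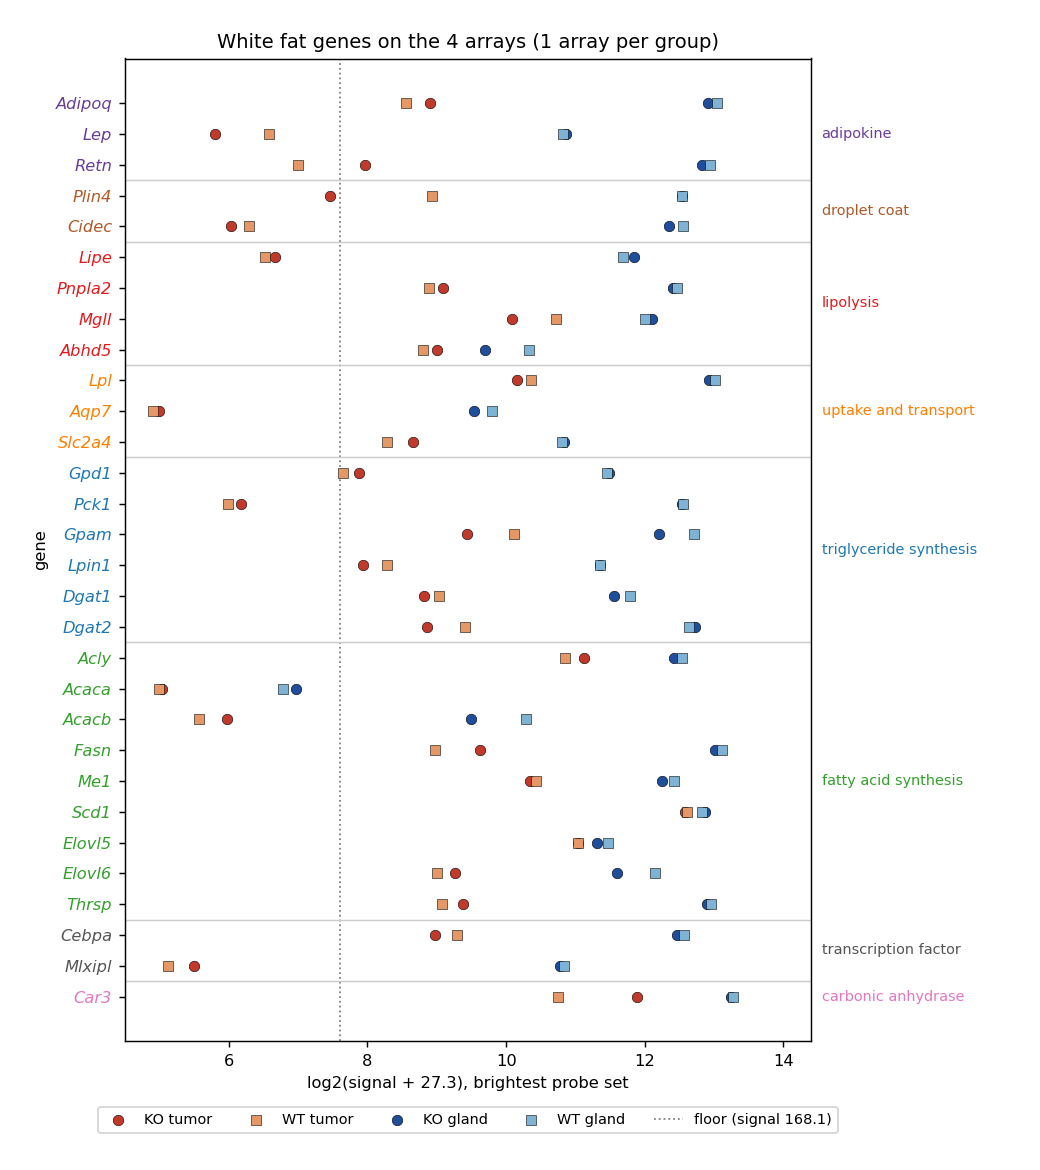
Level of each of the 30 measured genes as log2(signal + 27.3) along the horizontal axis, grouped by role, with 1 point for each of the 4 arrays and a dotted line at the floor, a signal of 168.1. The gland points lie to the right of the tumor points for all 30 genes, and those of Scd1 and Elovl5 lie closest together.

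The comparison of tumor with gland asks how far the fat tissue program differed in tissue that had become a tumor. In KO mice 27 of the 30 genes were lower in tumor, none was higher and 3 were within 2-fold. In WT mice 28 were lower, none was higher and 2 were within 2-fold. The median log2 difference was -3.40 in KO and -3.24 in WT, against -0.17 and -0.13 over all named genes. Among all named genes 18.6% were lower and 9.59% higher in KO tumor than in KO gland, and 15.8% were lower and 10.1% higher in WT tumor than in WT gland. Among the 8286 genes that reached the floor on at least 1 array these shares were 18.0% and 12.6% in KO, and 16.7% and 13.1% in WT. In both genotypes 17 of the 30 were at least 8-fold lower and 8 at least 16-fold lower. The shares of all named genes past these larger folds are not given here. As bulk tissue was measured, fewer fat cells and less RNA of these genes per fat cell cannot be told apart.

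The share of the gland signal that was left in the tumor had a median of 8.43% over the 30 genes in KO, with a lowest of 0.645% and a highest of 82.5%. In WT the median was 8.98%, from 0.324% to 86.0%. The differences in KO and in WT had a Pearson correlation of 0.93 across the 30 genes. The genes are not independent replicates, and within a genotype all share the same pair of arrays and one scaling.

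**Figure D2:**
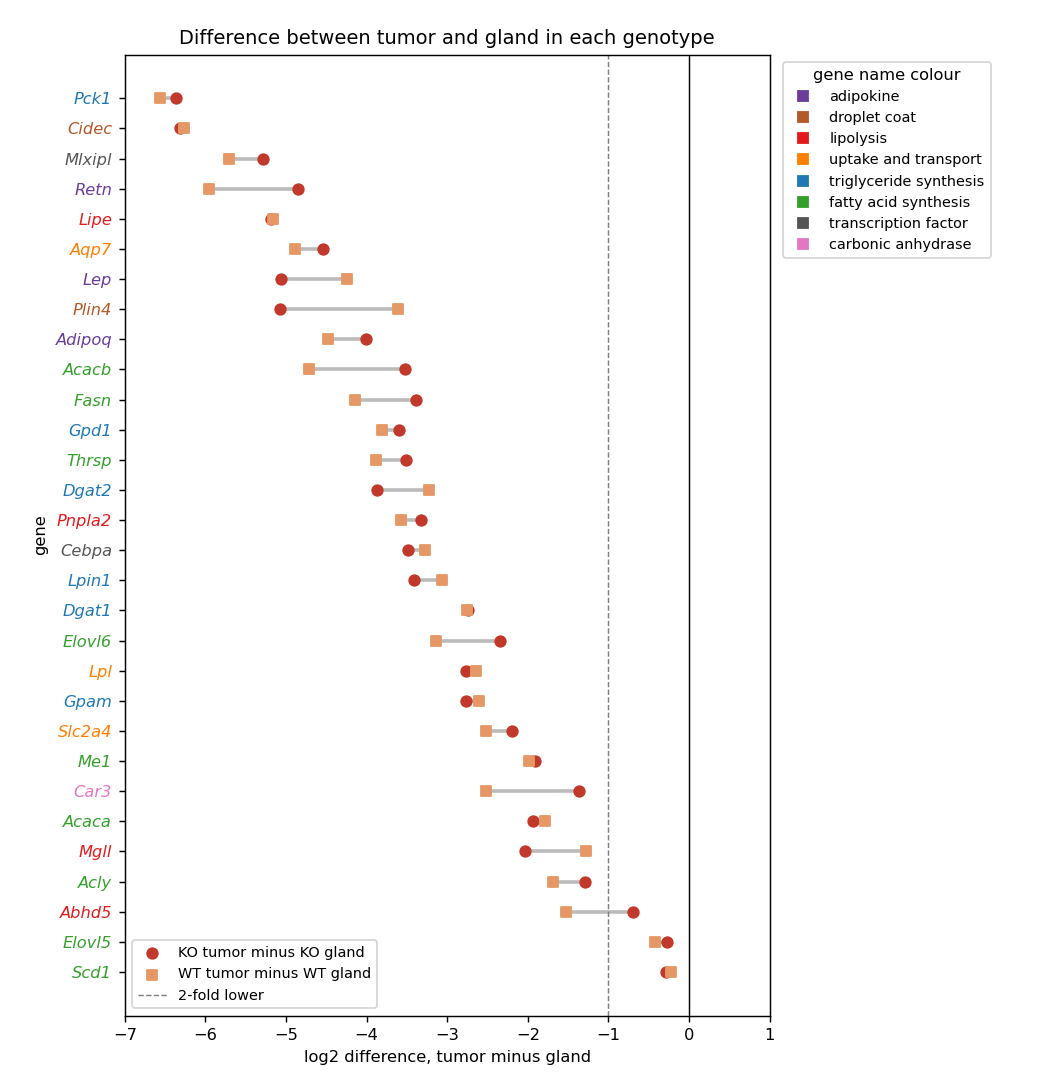
Tumor minus gland, log2, for each of the 30 measured genes, with a circle for KO and a square for WT, sorted by their mean, gene names coloured by role and a dashed line at 2-fold lower. No gene lies above 0, and only Scd1, Elovl5 and, in KO alone, Abhd5 lie within 2-fold.

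Adipokines, the hormones that fat cells secrete, were among the genes with the least left. Adipoq encodes adiponectin, which raises insulin sensitivity, and its signal was 451 and 349.7 in the KO and WT tumors, against 7674 and 8382 in the KO and WT glands. Lep, the satiety hormone leptin, had 28.4 and 68.8 in the KO and WT tumors, against 1827 and 1786 in the KO and WT glands. Retn encodes resistin, a hormone of mouse fat cells, and had 224 and 100.2 in the KO and WT tumors, against 7220 and 7863 in the KO and WT glands. Every tumor value lay far below every gland value for all 3. The folds were 16.1 and 22.3 for Adipoq, 33.3 and 18.9 for Lep, and 28.9 and 61.9 for Retn, in KO and WT, all lower in tumor.

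The coat of the lipid droplet showed the same direction. Cidec, which lets droplets fuse into the single large droplet of a white fat cell, had signals of 38.0 and 51.4 in the KO and WT tumors, against 5195 and 5995 in the KO and WT glands, and was 80.0-fold lower in KO tumor and 76.5-fold lower in WT tumor. Plin4, a perilipin that coats small, newly formed droplets, had 149 and 459 in the KO and WT tumors, against 5915 and 5916 in the KO and WT glands. It was 33.7-fold lower in KO tumor and 12.2-fold lower in WT tumor.

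The lipolysis genes were uneven. Lipe, hormone-sensitive lipase, had signals of 74.6 and 64.6 in the KO and WT tumors, against 3660.1 and 3255 in the KO and WT glands, or 36.2-fold and 35.7-fold lower in KO and WT tumor. Pnpla2, adipose triglyceride lipase, which takes the first fatty acid off a triglyceride, had 517 and 448 in the KO and WT tumors, against 5414 and 5610.2 in the KO and WT glands. Mgll, monoglyceride lipase, which takes off the last, had 1054 and 1657 in the KO and WT tumors, against 4377 and 4069 in the KO and WT glands, and was 4.07-fold lower in KO tumor and 2.43-fold lower in WT tumor. A further Mgll probe set gave log2 differences of -1.81 in KO and -0.42 in WT, so its size in WT depends on the probe set. Abhd5, the coactivator of Pnpla2 also called CGI-58, had 484 and 419.7 in the KO and WT tumors, against 805 and 1264 in the KO and WT glands. It was 2.89-fold lower in WT tumor and 1.63-fold lower in KO tumor, so it passed 2-fold in WT alone, and that difference between genotypes was not tested.

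Among the uptake and transport genes, Lpl encodes lipoprotein lipase, which frees fatty acids from circulating lipoproteins. Its signals were 1112 and 1292 in the KO and WT tumors, against 7739 and 8209 in the KO and WT glands, or 6.82-fold and 6.24-fold lower in KO and WT tumor. The other Lpl probe set gave a larger difference, 26.4-fold and 21.9-fold. Aqp7, the channel through which glycerol leaves the fat cell, was near background in the tumors, with 4.6 and 2.8 in the KO and WT tumors, against 713 and 864 in the KO and WT glands. On this scale that is 23.2-fold lower in KO tumor and 29.6-fold lower in WT tumor, sizes that the offset decides. Slc2a4, the insulin-regulated glucose transporter GLUT4, which is also abundant in skeletal muscle, had 375 and 285 in the KO and WT tumors, against 1805 and 1761 in the KO and WT glands.

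All 6 measured genes of triglyceride synthesis were lower in tumor in both genotypes, with medians of -3.51 in KO and -3.15 in WT. Pck1, which makes the glycerol backbone in fat cells from small precursors, had signals of 44.7 and 36 in the KO and WT tumors, against 5898 and 5959 in the KO and WT glands. At 82.3-fold lower in KO tumor and 94.6-fold lower in WT tumor it had the largest fold of the 30 genes on this scale. Gpd1, which makes glycerol 3-phosphate from a glycolysis intermediate, had 207 and 173 in the KO and WT tumors, against 2822 and 2778 in the KO and WT glands. Gpam, which attaches the first fatty acid to that backbone, had 662 and 1079 in the KO and WT tumors, against 4681 and 6682 in the KO and WT glands. For Gpam this was 6.83-fold and 6.07-fold lower in KO and WT tumor. Lpin1, a phosphatidate phosphatase, had 218 and 283 in the KO and WT tumors, against 2585 and 2589 in the KO and WT glands, 10.7-fold and 8.42-fold lower. The last step is shared by Dgat1, with 422 and 497 in the KO and WT tumors, against 2983 and 3491 in the KO and WT glands, and by Dgat2. For Dgat2 the signals were 435 and 654 in the KO and WT tumors, against 6753 and 6329 in the KO and WT glands. Dgat1 and Dgat2 were 6.70-fold and 14.7-fold lower in KO tumor and 6.71-fold and 9.33-fold lower in WT tumor.

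Of the 9 genes of fatty acid synthesis, 7 were lower in each genotype and 2 lay within 2-fold, with medians of -1.93 in KO and -1.99 in WT. The WT median was -3.21 with an offset of 1 in place of 27.3, so its size depends on that choice. Acly, which turns citrate into acetyl-CoA, had signals of 2212 and 1813 in the KO and WT tumors, against 5461 and 5914 in the KO and WT glands, only 2.45-fold and 3.23-fold lower. Fasn, the fatty acid synthase, had 762 and 473 in the KO and WT tumors, against 8229 and 8828 in the KO and WT glands, 10.5-fold and 17.7-fold lower. Me1, malic enzyme, which supplies NADPH, had 1269 and 1358 in the KO and WT tumors, against 4847 and 5471 in the KO and WT glands, 3.76-fold and 3.97-fold lower. By these probe sets Acly and Me1 had smaller folds than Fasn. Other Acly probe sets above the floor gave 2.95-fold and 6.02-fold lower in KO tumor, and 4.55-fold and 6.87-fold in WT tumor. Acss2, an acetyl-CoA synthetase outside the set, was 13.1-fold lower in KO tumor and 15.9-fold lower in WT tumor. Acacb, an acetyl-CoA carboxylase whose product restrains fatty acid oxidation, had 35.6 and 20.1 in the KO and WT tumors, against 692 and 1216 in the KO and WT glands. Acaca, the carboxylase that feeds Fasn, was below the floor on all 4 arrays, with 5.6 and 4.6 in the KO and WT tumors, against 98.3 and 82.8 in the KO and WT glands, so its folds are not interpreted. Thrsp, or Spot 14, a nuclear protein of lipogenic tissue, had 639 and 512 in the KO and WT tumors, against 7572 and 7917 in the KO and WT glands, 11.4-fold and 14.7-fold lower in KO and WT tumor.

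Both genes that stayed within 2-fold in both genotypes modify fatty acids after their synthesis. Scd1, which puts the first double bond into saturated fatty acids, had signals of 6112 and 6243 in the KO and WT tumors, against 7477 and 7260.4 in the KO and WT glands. Its other probe set disagreed, with 868 and 408 in the KO and WT tumors, against 3947 and 3565 in the KO and WT glands, 4.44-fold and 8.25-fold lower in KO and WT tumor. The related desaturase Scd2 had 4486 and 4849 in the KO and WT tumors, against 3418 and 2708 in the KO and WT glands. Whether the brighter Scd1 probe set also detects Scd2 was not tested, so Scd1 is uncertain. Elovl5, which lengthens polyunsaturated fatty acids, had 2064 and 2083 in the KO and WT tumors, against 2501 and 2796 in the KO and WT glands. Its other probe set gave log2 differences of -0.79 in KO and -1.10 in WT. With each array centred on its median, the KO values of the brighter probe sets turned to 0.04 for Scd1 and 0.05 for Elovl5. Elovl6, which lengthens saturated fatty acids of the Fasn pathway, had 588 and 486 in the KO and WT tumors, against 3076 and 4507 in the KO and WT glands, 5.05-fold and 8.84-fold lower in KO and WT tumor.

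Cebpa had signals of 473 and 602 in the KO and WT tumors, against 5609 and 6027 in the KO and WT glands. Mlxipl had 17.8 and 7.7 in the KO and WT tumors, against 1723 and 1799 in the KO and WT glands, and was 38.8-fold lower in KO and 52.2-fold lower in WT. Car3, a carbonic anhydrase abundant in white fat and also known from skeletal muscle, had 3745 and 1692 in the KO and WT tumors, against 9710.1 and 9863 in the KO and WT glands. The other Car3 probe set had 404 and 372 in the KO and WT tumors, against 9275 and 9166 in the KO and WT glands, 21.6-fold and 23.1-fold lower where the brighter one gave 2.58-fold and 5.75-fold.

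The promoters of 4 of these genes are printed because their genes span the range of the tumor and gland difference: Lep, Adipoq and Fasn with large differences and Elovl5 within 2-fold. The windows run from 250 bases before to 50 bases after the annotated start, 5' to 3' on the strand of the gene, from RefSeq, build GRCm38.p6. Capitals mark the C/EBP box in Lep, the CCAAT box on either strand in Adipoq and Fasn, and the CCAAT box and the E-box in Elovl5. The Lep window is chr6:29059971-29060270 on the + strand, Adipoq chr16:23146286-23146585 on the + strand, Fasn chr11:120824498-120824797 on the - strand and Elovl5 chr9:77917115-77917414 on the + strand.
Lep: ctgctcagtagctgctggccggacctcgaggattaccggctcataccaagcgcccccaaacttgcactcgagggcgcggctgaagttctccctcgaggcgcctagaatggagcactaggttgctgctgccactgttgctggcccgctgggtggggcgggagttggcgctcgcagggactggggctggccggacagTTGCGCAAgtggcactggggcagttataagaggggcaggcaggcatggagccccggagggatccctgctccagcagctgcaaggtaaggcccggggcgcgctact
Adipoq: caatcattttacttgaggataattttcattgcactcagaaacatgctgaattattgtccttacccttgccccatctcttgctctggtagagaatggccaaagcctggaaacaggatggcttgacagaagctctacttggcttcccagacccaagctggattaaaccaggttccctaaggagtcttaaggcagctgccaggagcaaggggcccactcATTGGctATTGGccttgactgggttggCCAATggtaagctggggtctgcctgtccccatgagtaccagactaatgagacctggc
Fasn: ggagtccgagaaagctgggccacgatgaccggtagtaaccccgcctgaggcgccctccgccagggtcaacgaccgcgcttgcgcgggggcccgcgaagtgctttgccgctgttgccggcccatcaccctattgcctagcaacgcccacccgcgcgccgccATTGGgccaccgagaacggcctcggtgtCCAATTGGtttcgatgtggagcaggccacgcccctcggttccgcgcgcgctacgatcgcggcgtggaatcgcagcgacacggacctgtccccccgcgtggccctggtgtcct
Elovl5: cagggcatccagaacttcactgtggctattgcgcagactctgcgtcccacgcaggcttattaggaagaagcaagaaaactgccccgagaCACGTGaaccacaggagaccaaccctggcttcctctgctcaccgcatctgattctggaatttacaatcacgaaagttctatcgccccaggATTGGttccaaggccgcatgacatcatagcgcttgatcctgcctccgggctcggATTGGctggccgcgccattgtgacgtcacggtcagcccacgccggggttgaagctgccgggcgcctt

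A window was found for 23 of the 30 measured genes, with 30 windows in all because some genes have several starts. In all, 32851 windows were searched for the same motifs on both strands. Windows of a chromosome that was left out are not among them, so they do not cover all genes. The C/EBP box, TTGCNNAA, to which Cebpa and its relatives can bind, stood in 3 of the 30 windows or 10.0%, those of Cidec, Gpam and Lep, against 10.8% of all windows. The E-box CACGTG stood in 4 windows or 13.3%, against 7.15% of all. The share for CCAAT was 33.3%, against 37.4% of all, with 6 of the 9 windows of fatty acid synthesis genes and 4 of the other 21 holding it. GGGCGG, the GC box, stood in 36.7%, against 35.7% of all, and AGGTCA, a nuclear receptor half-site, in 26.7%, against 16.3% of all. The Adipoq window holds CCAAT at positions -34, -27 and -7 from the start, and the Fasn window at -90, -62 and -59, of which the last 2 overlap on opposite strands. Elovl5 holds it at -71 and -17, and an E-box at -161, and Lep holds its C/EBP box at -55. These are letter matches and describe the windows only.

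Marker lists of other tissues also differed between tumor and gland, some in the direction of the white fat genes and some against it. Over 13 measured luminal genes the summed signal was 56786 and 51405 in the KO and WT tumors, against 25022 and 30474 in the KO and WT glands, and over 10 basal and myoepithelial genes it was 36905 and 41160 in the KO and WT tumors, against 13074 and 12884 in the KO and WT glands. Of the luminal genes 7 were higher in KO tumor and 4 in WT tumor, with none lower, while Esr1 and Pgr were below the floor on every array. The 17 skeletal muscle genes summed to 1993 and 1017 in the KO and WT tumors, against 72736 and 74977 in the KO and WT glands, so the gland pools carried muscle RNA as well as fat RNA. All 17 muscle genes were lower in WT tumor and 16 of 17 in KO tumor. B cell genes were lower for 7 of 7 in KO tumor and 6 of 7 in WT tumor, fibroblast genes for 7 of 10 and 6 of 10, endothelial genes for 6 of 8 and 4 of 8, and brown fat genes for 5 of 10 and 6 of 10. Of 11 macrophage genes, 1 was higher and 2 were lower in KO tumor, and 7 were higher and 1 lower in WT tumor. The part of these tissues in the white fat differences was not tested.

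Other genes of fat cells, taken from a list of 27 of which 24 were measured, were lower in tumor for the most part: 16 were lower in KO tumor with none higher and 8 within 2-fold, and 14 were lower and 1 higher in WT tumor with 9 within 2-fold. Rbp4, the retinol carrier, had signals of 50.3 and 44.4 in the KO and WT tumors, against 3846 and 4518 in the KO and WT glands. The imprinted gene Nnat was 45.4-fold lower in KO tumor and 57.4-fold lower in WT tumor, and Lgals12, a galectin of lipid droplets, 18.7-fold and 43.9-fold. Fabp4, the fatty acid carrier of fat cells and macrophages, kept more of its signal, with 1954 and 3252 in the KO and WT tumors, against 10917 and 10943 in the KO and WT glands. Among 23 further enzymes of fatty acid and acylglycerol metabolism 8 were lower and 3 higher in each genotype. Ces1d, a carboxylesterase of fat cells that hydrolyses triglyceride, had 50.4 and 17.6 in the KO and WT tumors, against 5214 and 7005 in the KO and WT glands. Fads2, a desaturase of polyunsaturated fatty acids, went the other way, with 1311 and 1463 in the KO and WT tumors, against 291 and 152 in the KO and WT glands. The elongases Elovl7 and Elovl1 were the other 2 that were higher.

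Of 17 measured regulators of fat cell formation and lipid synthesis, 7 were lower in each genotype, and 1 was higher, Klf5 in KO and Scap in WT. Their median of -0.24 in KO turned sign with each array centred on its median and without shared probe sets, reaching at most 0.08. Pparg had signals of 76.0 and 64.2 in the KO and WT tumors, against 1339 and 1870 in the KO and WT glands. Klf15, a fat cell factor of the Kruppel family, was 10.8-fold lower in both KO and WT tumor, and Ebf1, which acts early in fat cell formation, 11.2-fold and 8.4-fold lower. Srebf1, the sterol-regulated factor that switches on fatty acid synthesis genes in many cell types, had 2376 and 2516 in the KO and WT tumors, against 2493 and 2891 in the KO and WT glands. Srebf1 thus lay within 2-fold, as did the brighter probe sets of Scd1 and Elovl5, whose other probe sets gave larger differences.

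**Figure D3:**
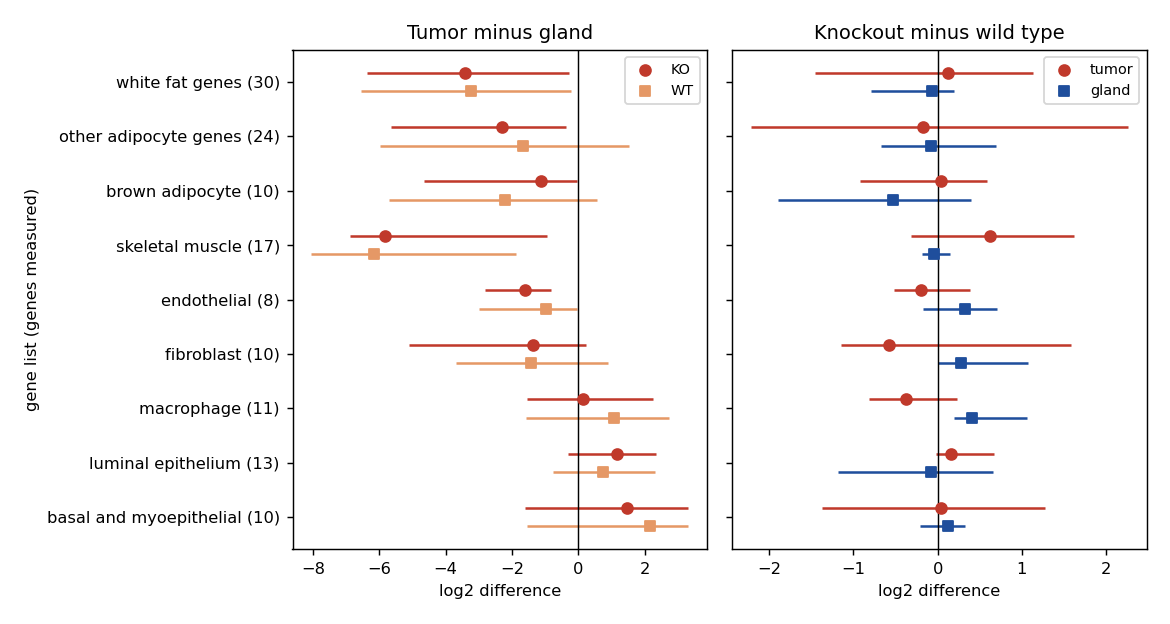
Log2 differences of the white fat genes and of 8 other gene lists in the 4 comparisons, with points at the median of a list and lines from its lowest to its highest gene. The white fat genes have medians of -3.40 and -3.24 for tumor minus gland in KO and WT, and 0.12 and -0.07 for KO minus WT in tumor and gland.

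The second question is whether loss of Sca-1 changed what fat tissue expression remained in tumors. Between the tumors, 1 of the 30 genes was higher in KO, Car3, 1 was lower, Plin4, and 28 lay within 2-fold. The median log2 difference, KO minus WT, was 0.12, against 0.01 over all named genes, with 17 genes positive and 13 negative. Of all 12393 named genes, 6316 were positive and 6034 negative. Of all named genes 1.85% were higher and 1.79% lower in the KO tumor, and of those that reached the floor 2.14% and 1.93%, so 1 of 30 each way is near the background.

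**Figure D4:**
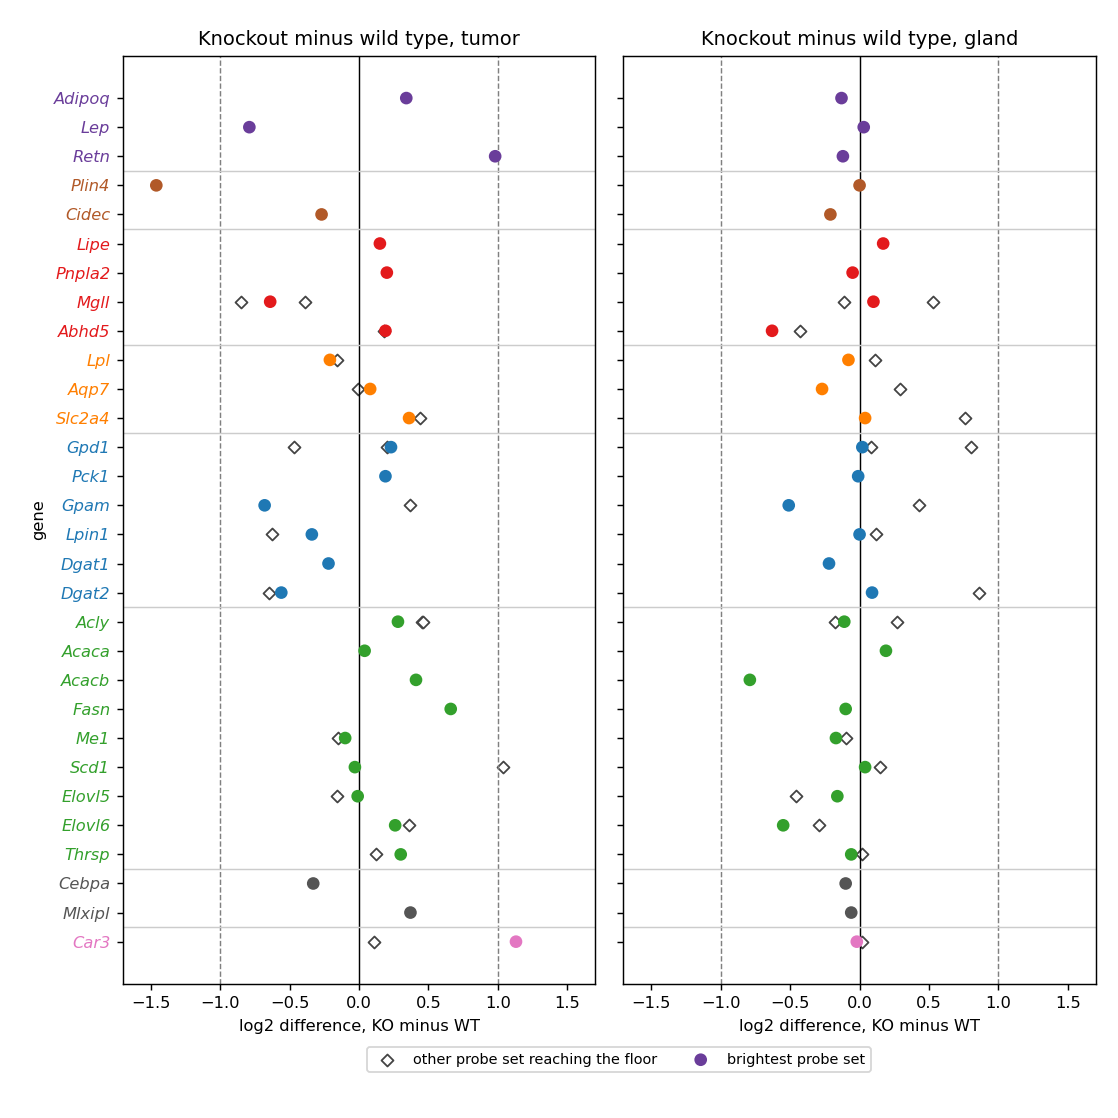
KO minus WT, log2, for each of the 30 measured genes in tumor and in gland, grouped by role, with dashed lines at 2-fold, filled points for the brightest probe set and open diamonds for other probe sets that reach the floor. The filled tumor points spread from -1.46 for Plin4 to 1.13 for Car3, and the filled gland points from -0.79 to 0.19.

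Plin4 was 2.76-fold lower in the KO tumor, where its signal of 149 was below the floor, against 459 in the WT tumor. Its difference of -1.46 was larger than the probe set spread of 0.18, which is a typical value over many genes. Plin4 has 1 probe set, so no other could be set beside it. In this comparison 3 of 19 other probe sets of white fat genes lay at least 2-fold from the brightest. Car3 was 2.19-fold higher in the KO tumor by its brighter probe set, but the other gave signals of 404 in the KO tumor and 372 in the WT tumor, a log2 difference of 0.11. The call for Car3 therefore rests on 1 of 2 probe sets. Scd1 showed the reverse: its brighter probe set gave -0.03 and the other, with 868 in the KO tumor and 408 in the WT tumor, gave 1.04. Retn, at 1.97-fold higher, and Lep, at 1.73-fold lower, lay just inside the limit. Both Lep signals, and that of Retn in the WT tumor, were below the floor. With the pooled median as offset Plin4 had -0.98, and with the mean of its probe sets Car3 had 0.62, so each call is lost under 1 of 7 alternatives.

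By role, the genes that make fatty acids and those that assemble triglyceride had medians of opposite sign in the tumors. Of 9 fatty acid synthesis genes, 6 were positive with a median of 0.26, led by Fasn at 1.58-fold higher in KO, followed by Acacb at 1.33-fold, whose signals were below the floor. Thrsp was 1.24-fold, Acly 1.22-fold and Elovl6 1.2-fold higher. Acaca, also below the floor, was the sixth, while Me1, Scd1 and Elovl5 were slightly negative, from -0.10 to -0.01. Of 6 triglyceride synthesis genes, 4 were negative with a median of -0.28, among them Gpam at 1.60-fold lower, Dgat2 at 1.47-fold, Lpin1 at 1.27-fold and Dgat1 at 1.17-fold. Gpd1 and Pck1 were positive, at 0.23 and 0.19. None of these reached 2-fold, and the difference between the 2 roles was not tested. Over the alternatives the medians ranged from 0.11 to 0.29 and from -0.56 to -0.19, so neither sign turned. The Gpam probe sets disagreed in sign, the dimmer one giving 0.37, while those of Dgat2 gave -0.56 and -0.65. Mgll was 1.56-fold lower, and its other probe sets above the floor gave -0.39 and -0.85.

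Among the 24 other fat cell genes measured, 1 was higher and 2 were lower in the KO tumor, with a median of -0.17. Angptl4, an inhibitor of lipoprotein lipase, had signals of 548 in the KO tumor and 2065 in the WT tumor, 3.63-fold lower. Agt, angiotensinogen, had 97.4 in the KO tumor and 554 in the WT tumor, 4.66-fold lower, and Sncg, gamma-synuclein, had 421 in the KO tumor and 66.6 in the WT tumor, 4.78-fold higher. The other 21 lay within 2-fold. Cd36, the fatty acid translocase, was 1.80-fold lower and Fabp4 1.66-fold lower.

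Markers of other tissues also differed between the tumor pools. Of 17 muscle genes 16 were positive in KO minus WT and 4 were higher, with sums of 1993 in the KO tumor and 1017 in the WT tumor, although 14 of the 17 were below the floor in both. Myh4, a fast myosin, had signals of 44.0 in the KO tumor and 0.6 in the WT tumor, and Acta1, skeletal muscle actin, had 428 in the KO tumor and 159.6 in the WT tumor. Car3 is a muscle gene as well as a fat gene, and the part of muscle RNA in its difference was not tested. Of 10 fibroblast genes 8 were negative, 1 was lower and 1 higher, with sums of 28523 in the KO tumor and 38507 in the WT tumor, and of 11 macrophage genes the sums were 24282 in the KO tumor and 30792 in the WT tumor. Luminal genes were positive for 12 of 13. The part of these cells in the white fat values was not tested. Of all 12393 named genes, 6316 were positive and 6034 negative between the tumors.

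In the gland the comparison asks whether the fat tissue program differed where no tumor had formed. None of the 30 genes passed 2-fold in either direction. The median log2 difference, KO minus WT, was -0.07, against 0.04 over all named genes. The differences ranged from -0.79 to 0.19, with 8 genes positive and 22 negative. Of all 12393 named genes, 6919 were positive and 5431 negative. Of all named genes 1.19% were higher and 0.282% lower in the KO gland, and of those that reached the floor 1.12% and 0.253%, so a count of 0 of 30 is close to the background.

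The 4 largest differences in the gland were all negative. Acacb had signals of 692 in the KO gland and 1216 in the WT gland, 1.73-fold lower. Abhd5 had 805 in the KO gland and 1264 in the WT gland, 1.55-fold lower, and its other probe set gave a log2 difference of -0.43. Elovl6 had 3076 in the KO gland and 4507 in the WT gland, 1.46-fold lower, and its other probe set gave -0.29. Gpam had 4681 in the KO gland and 6682 in the WT gland, 1.42-fold lower, but its dimmer probe set gave 0.43. Each of these 4 was larger than the probe set spread of 0.22. With each array centred on its median, Acacb passed 2-fold, at -1.02. For the adipokines the values were close, with Adipoq at 7674 in the KO gland and 8382 in the WT gland and Lep at 1827 in the KO gland and 1786 in the WT gland.

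Scaling and signs of RNA quality moved with the gland comparison. Centring each array on its median shifted the median of all named genes to -0.19 in the gland and to 0.16 for tumor minus gland in KO, and the white fat median in the gland to -0.30, which is -0.07 in the setting used here. Of the 30 genes, 17 turned sign in the gland under at least 1 alternative, so no direction is given for the set there. The ratio of 3' to 5' control probe sets was 1.61 in the KO gland and 2.35 in the WT gland for Actb, and 0.988 in the KO gland and 1.72 in the WT gland for Gapdh. In the KO and WT tumors it was lower, at 1.29 and 1.23 for Actb, and 0.876 and 0.768 for Gapdh. The part of RNA quality in the tumor and gland differences was not tested. Probe sets other than the brightest ran higher in the KO gland, by a median of 0.15 over 2764 genes and in 68.4% of them, and by a median of 0.19 over 19 other probe sets of white fat genes, of which 16 were higher. The largest such gap, 0.94, was that of Gpam. Dgat2, Slc2a4 and Gpd1 had values near 0 by the brighter probe set, 0.09, 0.04 and 0.02, and 0.86, 0.76 and 0.80 by another. In all, 11 of the 19 had the sign of the brighter one. The part of RNA quality in these values was not tested. In tumor minus gland all 19 other probe sets had the sign of the main one in both genotypes, and in the tumor comparison 15 of 19 did. Sizes differed more. In tumor minus gland 7 of the 19 lay at least 2-fold from the brightest in each genotype. In the tumor comparison 3 of the 19 did.

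Of 10 measured brown fat genes, 2 were lower in the KO gland and 8 lay within 2-fold, 3 of the 10 being positive. Ucp1, the uncoupling protein of brown fat, had signals of 183 in the KO gland and 754 in the WT gland, and Cidea, a droplet protein related to Cidec, had 552 in the KO gland and 1242 in the WT gland. Over 10 brown fat genes the sum was 3798 in the KO gland and 6613 in the WT gland, with 4 below the floor in both glands. Pparg, which both kinds of fat cell need, was 1.39-fold lower in the KO gland. Its list of 17 measured regulators did not share this direction, with 10 positive, 7 negative and none past 2-fold. Their median of 0.11 turned sign under some alternatives. Srebf2 had the largest difference of that list, at 1.73-fold higher. B cell genes were higher in the KO gland, for 7 of 7 measured, with sums of 6805 in the KO gland and 2444 in the WT gland. Macrophage genes were positive for 11 of 11, with sums of 18606 in the KO gland and 13696 in the WT gland. Fibroblast genes were positive for 9 of 10, with sums of 60044 in the KO gland and 48586 in the WT gland. Endothelial genes were positive for 6 of 8. The part of these cells in the white fat values was not tested. Of all 12393 named genes, 6919 were positive and 5431 negative in the gland.

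The genotype difference in tumor minus that in gland was at least 2-fold for 4 of the 30 genes. It was 1.2 for Acacb, 1.16 for Car3, 1.10 for Retn and -1.46 for Plin4. Acacb, Retn and Plin4 each had a tumor signal below the floor in at least 1 genotype, and the Car3 value comes from the brighter of its 2 disagreeing probe sets. The share of all named genes past this limit is not given here, so 4 of 30 has no background to be read against.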

How the data were processed

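RNA pooled from 5 mice per group, labelled with biotin, was hybridised to 4 Affymetrix arrays, per the labels' protocols. The deposited values are linear intensity values, 1 per probe set for 22690 probe sets, and the software and scaling steps behind them are not given in the sources used here. Each array had a mean of 499.9 after 2% of its values were trimmed at each end. Probe sets were named through the platform annotation, and the symbols of 20364 of them were brought up to date by gene identifier. Of all probe sets, 20393 had 1 symbol, 691 had several and were left out, 1606 were not listed, and 64 were control probe sets. Of several probe sets of a gene the brightest on average was used, with no filter on low values, as log2(signal + 27.3). With 1 array per group no test was made, and precision is limited by the number of arrays. Promoters came from RefSeq (GRCm38.p6). The genes and lists were chosen with earlier results of these data known. Of each other list, up to 4 genes with the largest differences were to be named; Scd2, Fabp4, Srebf1, Klf5, Scap, Elovl1, Elovl7, Esr1, Pgr, Csn3, Btn1a1, Xdh and Olah fall outside that rule and were named after their values were seen. Alternatives used other offsets, scalings (limma 3.58.1, R 4.3.3), probe set choices and filters, and the procedure was tested on simulated data. Python 3.11.15 was used.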

Additional observations from a re-analysis of the deposited data

Results flagged for a closer look

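The genotype difference ran in opposite directions in tumor and in gland for 3 white fat genes, each past the spread between probe sets in both tissues. With 1 array per group the difference between the tissues was not tested. The share of all named genes that meet this rule is not given here, so the count has no background beside it. Abhd5 barely passed the spread in the tumor, at 0.19 against 0.18. Acacb had a log2 difference, KO minus WT, of 0.41 in the tumor and -0.79 in the gland, which are 1.2 apart, with tumor signals of 35.6 in KO and 20.1 in WT that lie below the floor. Abhd5 had 0.19 in the tumor and -0.63 in the gland, 0.83 apart, and its other probe set gave 0.18 and -0.43. Elovl6 had 0.26 in the tumor and -0.55 in the gland, 0.81 apart, and its other probe set gave 0.36 and -0.29.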

How the results depend on the processing

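No median over the white fat genes changed sign under the alternatives run. For tumor minus gland the number of lower genes ranged from 26 to 28 in KO and from 27 to 28 in WT over alternatives that measured 29 or 30 of the genes, and was 24 in KO and 25 in WT without shared probe sets, which left 28. None was higher under any alternative. The KO median for tumor minus gland moved to -2.73 with the pooled median as offset. For KO minus WT in the tumor, an offset of 1 gave 3 higher genes (Car3, Retn and Mlxipl) and 2 lower ones (Plin4 and Lep), the pooled median as offset gave 0 lower, and the mean of each gene's probe sets gave 0 higher. Since Mlxipl and Lep were below the floor in both tumors, the size of the offset decides their folds. For KO minus WT in the gland, centring each array on its median moved the median to -0.30 and gave 1 lower gene, Acacb. Single genes turned sign under at least 1 alternative for 17 of 30 in the gland, 6 of 30 in the tumor, 2 of 30 for tumor minus gland in KO and 0 of 30 in WT. Keeping probe sets with several symbols could not be run, because none of them names a white fat gene. No paired analysis was possible because each group is 1 array, and no array could be left out for the same reason. Signals below 168.1 limit the tumor values of 8 of the 30 genes in both genotypes.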

Other observations

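Milk genes, whose cells of origin were not tested here, are best known from the epithelium of the gland. Of 11 measured, 4 were higher in the KO tumor, none was lower and 7 lay within 2-fold. In the KO gland 2 were higher and none was lower. Of all named genes 1.85% were higher in the KO tumor and 1.19% in the KO gland. Csn1s1 had 65.8 in the KO gland and 18.4 in the WT gland, both below the floor. Glycam1 had 4514 in the KO gland and 1091 in the WT gland. Between the tumors, Csn1s1 had 1275 in the KO tumor and 715 in the WT tumor. Csn1s2a, a casein, had a signal of 1653 in the KO tumor and 25.1 in the WT tumor, and the casein Csn2 had 1758 in the KO tumor and 230.6 in the WT tumor. Glycam1 had 477 in the KO tumor and 13.3 in the WT tumor, and Lalba 92.5 in the KO tumor and 2.8 in the WT tumor, all 4 signals of Lalba being below the floor. Csn3, the casein that caps the micelle, had 9919 in the KO tumor and 10133 in the WT tumor, so the caseins did not move as one. The genes of milk fat secretion lay within 2-fold, as Btn1a1 had 1102 in the KO tumor and 907 in the WT tumor and Xdh had 846 in the KO tumor and 1286 in the WT tumor. Olah, the thioesterase that shortens fatty acids in lactating epithelium, was below the floor on all 4 arrays.

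Control genes differed little between genotypes apart from Actb in the gland. Over 8 measured control genes the median log2 difference, KO minus WT, was -0.04 in the tumor and 0.00 in the gland, while Actb had 2578 in the KO gland and 1318 in the WT gland.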
